A study of Mus musculus with 18 samples.

Results

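Toll-like receptors are the membrane sensors with which skin cells recognise microbes. The 9 genes described here are Tlr1, Tlr2, Tlr3, Tlr4, Tlr5, Tlr6, Tlr7, Tlr9 and Myd88, the adaptor most of these receptors signal through. They were taken by symbol from a table of 55357 genes, and all 9 had a row. Of these, 8 reached 10 normalized counts or more in 6 or more libraries, the filter on low values that 17667 genes passed in all. Myd88 did not pass it.

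RNA of back skin was sequenced from 18 FVB mice aged 6 months, 1 library per mouse. C-IKKα mice (6 mice, numbered 13 to 18) express exogenous IKKα in the cytoplasm of keratinocytes. N-IKKα mice (6 mice, numbered 7 to 12) express it in the nuclei of these cells. WT mice (6 mice, numbered 1 to 6) are the wild type controls. IKKα, encoded by Chuk, belongs to the kinase complex that releases NF-kB. The sources used here do not give the promoter that drives the transgenes, the founder lines or the sex of the mice. Nothing states whether mice of 1 group were littermates, so p values measure the spread between these 18 mice.

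Each Toll-like receptor recognises its own class of microbial molecule. Tlr2 pairs with Tlr1 or Tlr6 at the cell surface and binds bacterial lipopeptides, Tlr4 binds lipopolysaccharide, and Tlr5 binds flagellin. Tlr3, Tlr7 and Tlr9 sit in endosomes and bind paired-strand RNA, unpaired RNA and CpG-rich DNA. All of them except Tlr3 recruit Myd88, which leads through Irak kinases, Traf6 and the IKK complex to NF-kB. In skin the receptors are known from keratinocytes, macrophages, Langerhans cells and mast cells. NF-kB in turn induces adhesion molecules, cytokines and the inhibitors that end the signal.

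The promoters of Tlr2 and Tlr3 are shown because they alone among the members' promoter windows held matches to the NF-kB consensus. The sequences are those of RefSeq on GRCm38.p6, which had 9 windows of 300 bases, from 250 before to 50 after a gene start, for 7 of the 9 members. Each is written 5′ to 3′ on the gene's strand, with the matched bases in capitals. The Tlr2 window is chr3:83841559-83841858 on the minus strand, and the Tlr3 window is chr8:45410331-45410630 on the minus strand.
Tlr2: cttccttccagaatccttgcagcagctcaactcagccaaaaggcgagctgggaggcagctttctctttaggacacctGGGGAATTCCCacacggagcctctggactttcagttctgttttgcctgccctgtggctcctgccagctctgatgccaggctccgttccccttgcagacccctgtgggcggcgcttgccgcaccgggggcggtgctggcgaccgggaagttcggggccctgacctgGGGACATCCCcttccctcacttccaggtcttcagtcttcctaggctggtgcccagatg
Tlr3: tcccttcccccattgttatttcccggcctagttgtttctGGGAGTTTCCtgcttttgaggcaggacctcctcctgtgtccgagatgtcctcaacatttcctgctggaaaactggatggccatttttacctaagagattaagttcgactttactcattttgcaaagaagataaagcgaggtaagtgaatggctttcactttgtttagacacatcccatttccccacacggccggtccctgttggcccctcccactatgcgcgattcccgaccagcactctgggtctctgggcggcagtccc
In the Tlr2 window the consensus, searched on both strands, matched at 2 separate places. The first was GGGGAATTCCC, 173 bases before the start, where overlapping matches were merged, and the other was GGGACATCCC, 8 bases before it. In the Tlr3 window it matched once, at GGGAGTTTCC, 211 bases before the start. Searched the same way, on both strands, 8.46% of 32841 promoter windows held at least 1 match and 0.518% held matches at 2 or more separate places. The AP-1 motif TGANTCA was found once, in Tlr9 (7.81% of windows held it). The interferon-type motif, GAAA, any 2 bases and GAAA, was found in the windows of Myd88 and Tlr6 (3.44% of windows), and the PU.1 core GAGGAA in those of Tlr1 and Tlr9 (28.3% of windows). These matches describe the letters of the windows and show no binding.

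Tlr1 and Tlr6 lie on chromosome 5 and share part of their coding sequence, which bears on how well reads can be assigned to them. The longest identical stretch ran over 229 bases, from base 1468 of the Tlr1 coding sequence and base 1507 of the Tlr6 coding sequence, counted from the start codon in GENCODE M21 on GRCm38. Its first 60 bases were the same in both genes.
Tlr1 and Tlr6, first 60 shared bases: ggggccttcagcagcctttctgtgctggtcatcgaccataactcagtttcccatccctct
Of all windows of 75 bases in the Tlr6 coding sequence, 14.5% were present unchanged in that of Tlr1. The longest stretch shared by any other pair of members was 16 bases. The sources used here do not say how reads that fit both genes were counted, so the counts of Tlr1 and Tlr6 are less certain than those of the other members.

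The deposited values are normalized counts, gene counts that were divided by 1 size factor per library. Libraries held 11.1 to 15.7 M counted reads, and 1 read was worth 0.816 to 1.20 normalized counts. Chuk did not separate the groups. It had between 853 and 934 normalized counts (median 885) in C-IKKα, between 804 and 1050.2 (median 1021) in N-IKKα and between 851 and 1267 (median 989) in WT, so it does not check the labels. Basal keratinocyte markers were abundant in every library, with a summed count of 45153 to 79335. The libraries fell into 2 sets by the keratins of growing hair. The mean of 23 hair shaft and inner root sheath genes exceeded 8 (log2) in 6 libraries, C-IKKα 14, N-IKKα 8, 9 and 11, and WT 1 and 4, and stayed below 8 in the other 12. All 6 came from animals read as female from Ddx3y, and 4 C-IKKα, 2 N-IKKα and 2 WT mice were read as male. Hair state and sex were thus spread unevenly over the groups. Both were read from these same libraries and are descriptions.

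Tlr2, the receptor for bacterial lipopeptides, was the member that differed most between the groups. In C-IKKα skin it had 547, 351, 327, 626, 572 and 489 normalized counts (mice 13 to 18). In N-IKKα skin it had 246, 82.0, 75.7, 211, 90.8 and 285 (mice 7 to 12). In WT skin it had 254, 282, 307, 82.2, 201 and 280.3 (mice 1 to 6). Every C-IKKα library lay above every N-IKKα and every WT library, while the N-IKKα and WT libraries overlapped. The mean was 485 ± 122 in C-IKKα, 165 ± 93.2 in N-IKKα and 235 ± 82.9 in WT (SD, n = 6 each).

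Between the transgenic groups Tlr2 fell in N-IKKα relative to C-IKKα, with a log2 fold change of -1.72 (SE 0.37, 95% interval -2.49 to -0.95, limma adjusted p = 0.0459). It was the only member called in any comparison, 1 of 8 tested, where limma called 0.43% of 17667 genes in this comparison and 0.425% as lower. The 2 groups did not overlap, as was the case with N-IKKα lower for 0.736% of genes. The call lay close to the threshold. DESeq2 also called it (-1.56, adjusted p = 0.00206), while edgeR did not (-1.56, adjusted p = 0.0738), and it was lost without any 1 of 13 libraries in turn (adjusted p up to 0.155). Those libraries were C-IKKα 13, 14, 16, 17 and 18, N-IKKα 8, 9 and 11, and WT 1, 2, 3, 5 and 6. With sex in the model it was -1.47 (limma adjusted p = 0.0628).

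In C-IKKα against WT, Tlr2 had a log2 fold change of 1.12 (SE 0.37, 95% interval 0.35 to 1.89), which did not pass the test across all genes (limma adjusted p = 0.466, unadjusted p = 0.00698). The C-IKKα libraries were higher than the WT libraries in 6 of 6 cases without overlap, as for 0.838% of genes. In N-IKKα against WT it had -0.60 (95% interval -1.37 to 0.17, limma adjusted p = 0.880), with overlapping groups.

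**Figure D1:**
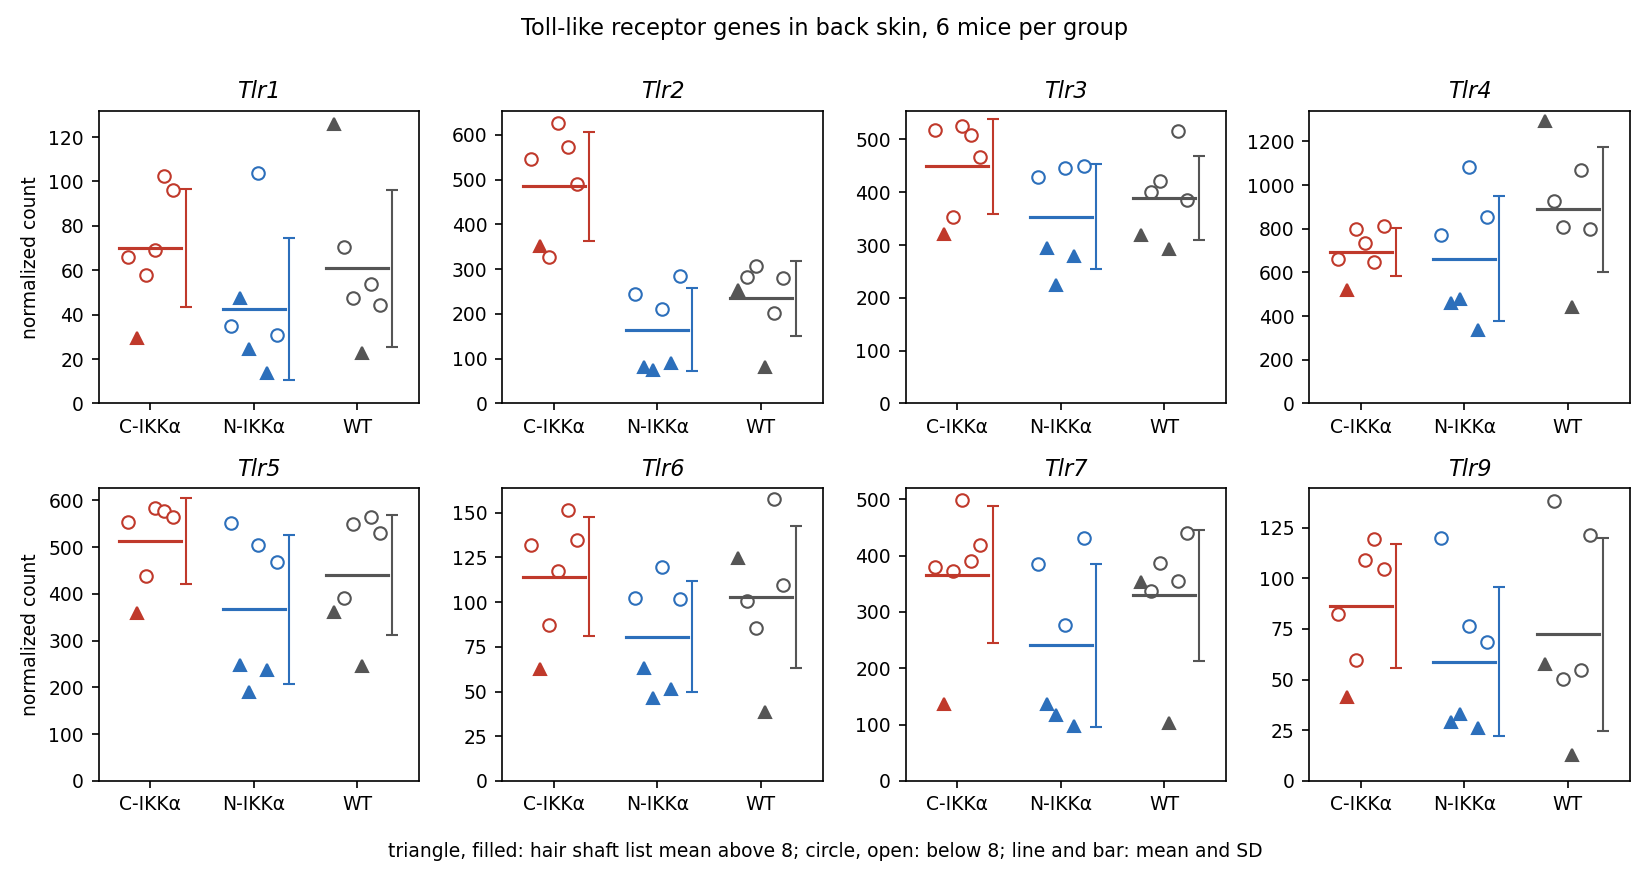
Normalized counts of the 8 receptor genes that passed the filter (vertical axes, 1 scale per gene) in C-IKKα, N-IKKα and WT back skin. Each point is 1 mouse, filled triangles are libraries with a hair shaft list mean above 8, and lines and bars give mean and SD (n = 6 each). The Tlr2 points of C-IKKα, from 327 to 626, lie above all others.

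Inside N-IKKα all 3 libraries with high hair keratins had less Tlr2 than the other 3, while inside WT this held for WT 4 and not for WT 1. Within the 12 libraries with low hair keratins, Tlr2 ranged from 327 to 626 in 5 C-IKKα, from 211 to 285 in 3 N-IKKα and from 201 to 307 in 4 WT libraries. Within the 6 with high hair keratins it was 351 in C-IKKα 14, between 75.7 and 90.8 in the 3 N-IKKα libraries, and 254 and 82.2 in WT 1 and 4. In both sets the C-IKKα values were above all others, although the high set has 1 C-IKKα mouse.

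Without the 6 high libraries, limma called Tlr2 higher in C-IKKα than in WT (0.92, SE 0.18, adjusted p = 0.0264), where 0.895% of 16985 genes were called higher. It also called Tlr2 lower in N-IKKα than in C-IKKα (-1.02, SE 0.20, adjusted p = 0.0471), where 0.236% were called lower. With the hair list mean as a covariate the values were 0.998 (SE 0.23, limma adjusted p = 0.0437) and -1.43 (SE 0.24, limma adjusted p = 0.00265), where 0.86% of genes were called higher and 0.86% lower. With sex added to that model the value against WT was 0.94 and was no longer called (limma adjusted p = 0.0812; 0.798% of genes were called higher), and that between the transgenic groups was -1.39 (limma adjusted p = 0.0044; 0.934% were called lower). Among females Tlr2 was 351 and 489 in C-IKKα, 75.7 to 211 in N-IKKα and 82.2 to 282 in WT. Among males it was 327 to 626 in C-IKKα, 246 and 285 in N-IKKα, and 280.3 and 307 in WT.

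Tlr2 also went with markers of dendritic and Langerhans cells, as did other members. Over the 18 libraries its r with the mean of this marker list was 0.86. Those of the other members ran from 0.50 (Tlr4) to 0.86 (Tlr5). Such r values were not particular to this list. With the macrophage list Tlr2 had 0.60 and the others 0.56 (Tlr3) to 0.91 (Tlr4). With the hair list Tlr2 had -0.67 and the others -0.84 (Tlr5) to -0.47 (Tlr1). Over the 12 low libraries Tlr2 had -0.18 with the macrophage list. The summed count of 9 dendritic and Langerhans cell markers was 6590.4 to 13093 in C-IKKα, 3122 to 9913 in N-IKKα and 3378 to 8855 in WT. None of the 9 was called in any comparison by limma, edgeR or DESeq2. At an unadjusted limma p below 0.05, 1 of the 9 passed in C-IKKα against WT, beside 5.73% of all genes. In N-IKKα 1 passed against WT, beside 4.14%, and 4 against C-IKKα, beside 11.7%. With the mean of this list as a covariate, an alternative chosen after seeing the data, Tlr2 had 0.53 in C-IKKα against WT (limma adjusted p = 0.621) and -0.99 in N-IKKα against C-IKKα (limma adjusted p = 0.133). With the macrophage list in its place the values were 1.13 (limma adjusted p = 0.101) and -1.44 (limma adjusted p = 0.0272). With the hair list mean beside the dendritic list they were 0.65 (limma adjusted p = 0.351) and -1.08 (limma adjusted p = 0.0282), the latter called. The part of these cells in the result was not tested, and in whole skin fewer cells of a type and less RNA per cell cannot be told apart.

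**Figure D2:**
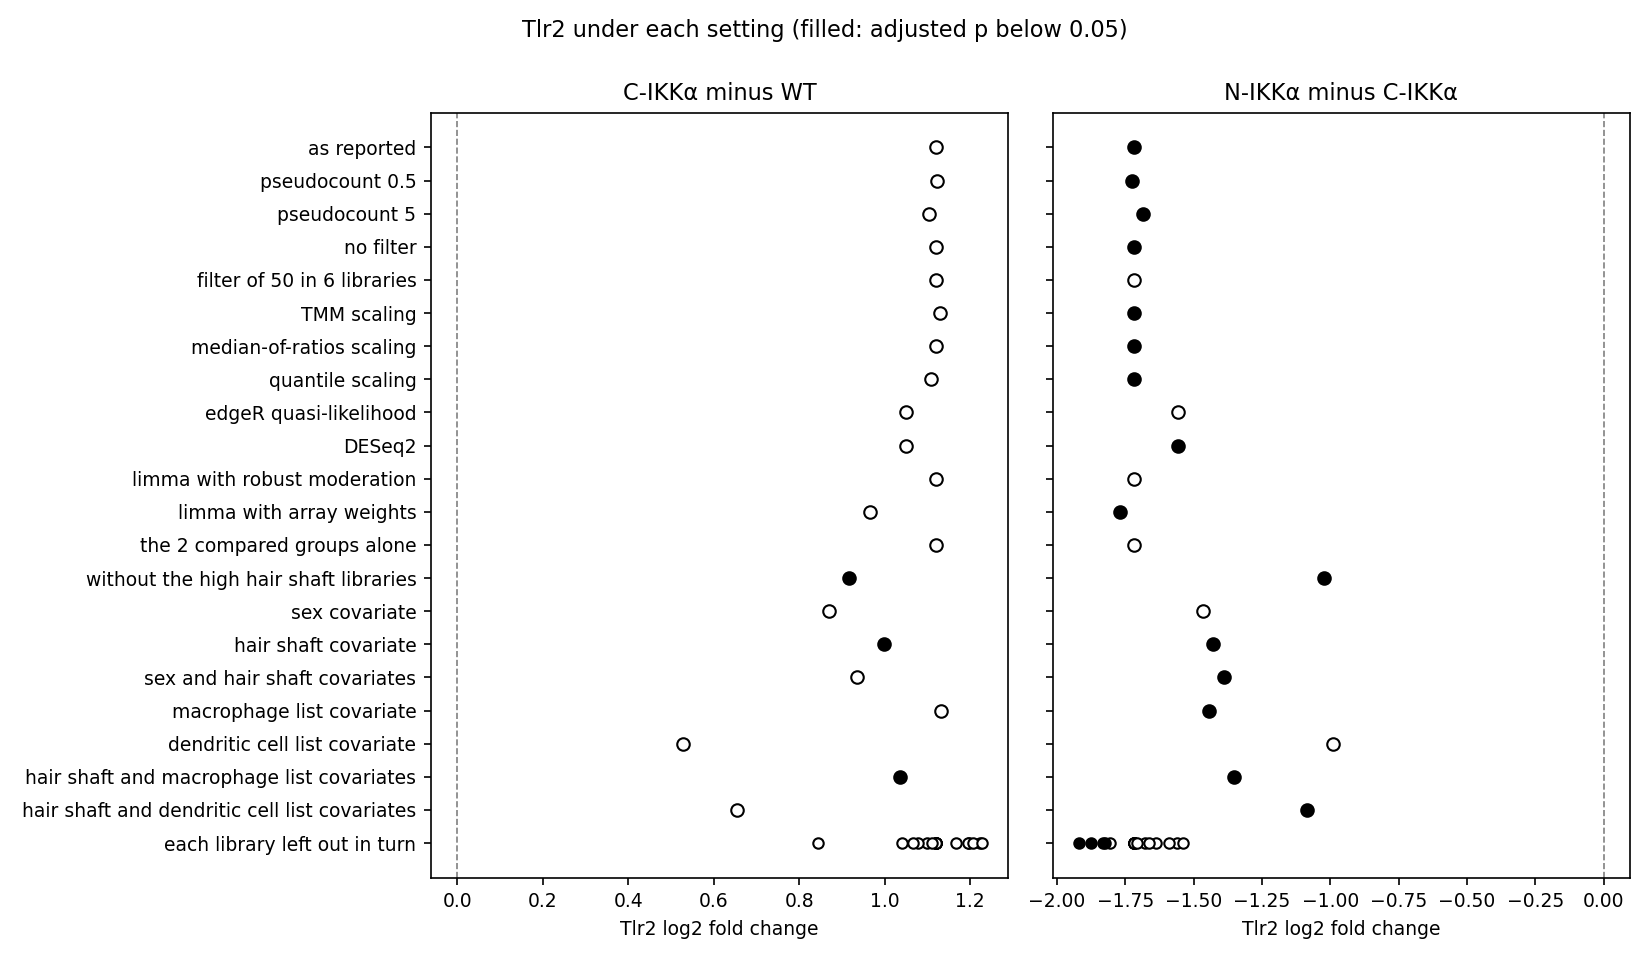
Log2 fold change of Tlr2 (horizontal axes) under each processing setting (rows) for C-IKKα minus WT and N-IKKα minus C-IKKα, with filled points where the adjusted p was below 0.05. All values keep their sign, from 0.53 to 1.23 on the left and from -1.92 to -0.99 on the right.

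Tlr1 and Tlr6, the partners of Tlr2, were the least expressed surface receptors. Tlr1 had 29.4 to 103 normalized counts (median 67.4) in C-IKKα, 13.6 to 104 (median 32.9) in N-IKKα and 22.8 to 126 (median 50.7) in WT. Tlr6 had 62.8 to 152 (median 125) in C-IKKα, 46.4 to 119.7 (median 82.4) in N-IKKα and 38.8 to 158 (median 105) in WT. The groups overlapped for both genes. The log2 fold changes were 0.28 and 0.21 in C-IKKα against WT, -0.60 and -0.32 in N-IKKα against WT, and -0.88 and -0.53 in N-IKKα against C-IKKα for Tlr1 and Tlr6 in that order. None of the 6 was called by limma (adjusted p from 0.441 to 0.985), and the 95% interval of Tlr1 in N-IKKα against C-IKKα ran from -1.80 to 0.05.

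Tlr4, the lipopolysaccharide receptor, did not follow Tlr2. It had 519.8 to 814 normalized counts (median 698) in C-IKKα, 335 to 1083 (median 625.2) in N-IKKα and 442 to 1292 (median 867) in WT. It was the 1 member with a negative log2 fold change in C-IKKα against WT, at -0.30 (95% interval -0.86 to 0.27, limma adjusted p = 0.985). In N-IKKα it was -0.47 against WT (limma adjusted p = 0.880) and -0.17 against C-IKKα (limma adjusted p = 0.749). The last value took the other sign, 0.29, without the libraries with high hair keratins, and 0.00 with the hair covariate. Over all 18 libraries the log2 levels of Tlr4 and Tlr2 had a Pearson r of 0.51, and over the 12 with low hair keratins an r of -0.81. These correlations are descriptions across libraries of all groups, with no p.

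Tlr5, the flagellin receptor, had 359.8 to 585 normalized counts (median 559) in C-IKKα, 190.2 to 553 (median 359) in N-IKKα and 247 to 564 (median 460.2) in WT. Its log2 fold change was 0.26 in C-IKKα against WT, -0.33 in N-IKKα against WT and -0.58 in N-IKKα against C-IKKα. The last had an unadjusted p of 0.0431 and was not called (limma adjusted p = 0.428). Within the low hair set its range was 439 to 585 in C-IKKα, 469 to 553 in N-IKKα and 391 to 564 in WT, which overlap.

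The endosomal receptors overlapped between all groups. Tlr3 had 321 to 525 normalized counts (median 488) in C-IKKα, 224 to 449 (median 361) in N-IKKα and 293 to 515 (median 393) in WT. Tlr7 had 136 to 499.5 (median 385) in C-IKKα, 97.0 to 432 (median 207) in N-IKKα and 103 to 440.3 (median 355) in WT. Tlr9 had 41.6 to 119 (median 93.5) in C-IKKα, 26.1 to 120.0 (median 50.9) in N-IKKα and 12.6 to 138 (median 56.2) in WT. None was called by limma, with adjusted p from 0.445 to 0.989. The largest of their differences was that of Tlr7 in N-IKKα against C-IKKα, -0.74 (95% interval -1.63 to 0.15).

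Myd88, the shared adaptor, was listed at 0 in all 18 libraries. A listed 0 allows up to 3 counts, or 2.45 to 3.61 normalized counts depending on the library, for counting error only. Xist was also listed at 0 in every library, including those read as female, so a 0 in this table does not show that a gene was silent, and no fold change is given. In GENCODE M21, matched by gene identifier, 11.3% of the exon length of Myd88 lies under exons of Acaa1a on the opposite strand. The share is 7.32% for Tlr3, under Gm45542, and 0 for the other members. The sources used here do not give the strand setting of the counting, and the reason for the 0 was not tested.

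Over the 8 members tested, limma called 0 in C-IKKα against WT, where it called 0.345% of all genes. It called 0 of 8 in N-IKKα against WT, where it called 0.00566%. At an unadjusted p below 0.05 there was 1 member in C-IKKα against WT (5.73% of genes), 0 in N-IKKα against WT (4.14%) and 2 in N-IKKα against C-IKKα (11.7%). edgeR called 0 members in each comparison, beside 0.311% of genes higher in C-IKKα than in WT and 0.334% lower in N-IKKα than in C-IKKα. DESeq2 called 0, 0 and 1, beside 0.77% and 0.968% in the same directions. The sign was positive in 7 of 8 members in C-IKKα against WT (median log2 fold change 0.23), negative in 8 of 8 in N-IKKα against WT (median -0.40) and negative in 8 of 8 in N-IKKα against C-IKKα (median -0.63). These tallies moved with the setting. With the dendritic cell covariate 1 of 8 was positive in C-IKKα against WT, Tlr2, and 6 of 8 were negative in N-IKKα against C-IKKα. Without the libraries with high hair keratins 5 of 8 were negative in N-IKKα against WT and 7 of 8 in N-IKKα against C-IKKα. Over all genes tested the medians were 0.00, 0.01 and 0.01, with 50% positive, 48.8% negative and 49.1% negative. The 3 comparisons share libraries, and levels of the members were correlated across mice (Pearson r of 0.94 between Tlr3 and Tlr5), so these signs are not separate observations.

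**Figure D3:**
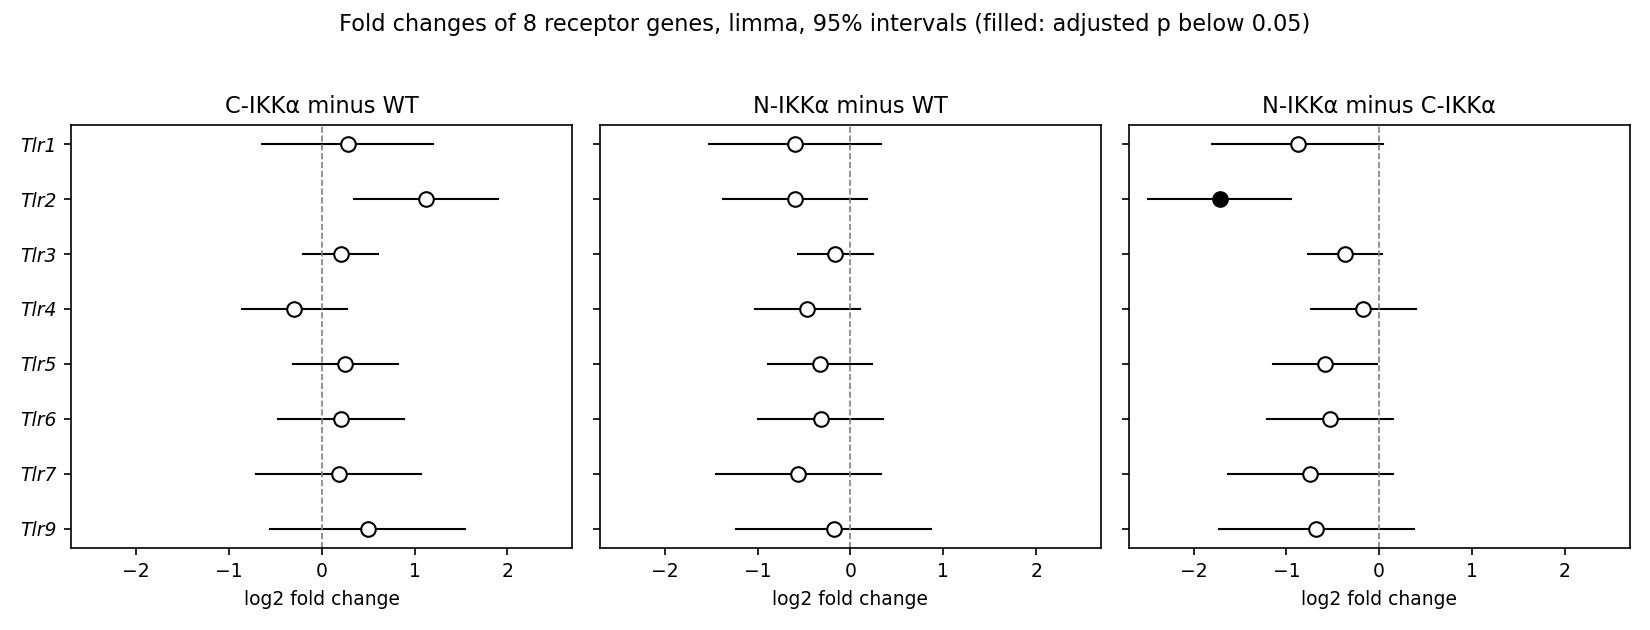
Log2 fold changes (horizontal axes) of the 8 receptor genes with 95% intervals from limma for C-IKKα minus WT, N-IKKα minus WT and N-IKKα minus C-IKKα. Only Tlr2 in the last comparison, at -1.72, has an adjusted p below 0.05.

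The receptors also differed between the hair sets. The 6 libraries with high hair keratins lay below all 12 with low hair keratins for 2 of 8 members, Tlr3 and Tlr5. This was the case for 5.25% of all genes tested. WT 1 was then left out, a choice made with its values known and not planned. The other 5 lay below all 12 for 6 of 8 members, Tlr3, Tlr4, Tlr5, Tlr6, Tlr7 and Tlr9, against 7.57% of genes. Tlr7 was 97.0 to 136 normalized counts in those 5 libraries and 277 to 499.5 in the 12. Tlr5 was 190.2 to 359.8 in the 5 and 391 to 585 in the 12. WT 1 stood apart from the other high libraries. It had 1292 normalized counts of Tlr4 and 126 of Tlr1, the highest of all 18 libraries, beside 492 of Tlr13 and 1072 of S100a9, a gene of neutrophils and stressed keratinocytes that had at most 55.1 elsewhere.

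Sums of cell type markers also differed between the hair sets, not all in 1 direction. The summed macrophage markers were 6925 to 20257 in the high set (median 8966) and 9397 to 18446 in the low set (median 12232). The dendritic and Langerhans cell sum was 3122 to 6590.4 in the high set and 5731 to 13093 in the low set, and the fibroblast sum had medians of 34895 and 217810.3 in the same order. Mast cell markers, by contrast, summed to 1402 to 2256 (median 1679) in the high set and 948 to 2284 (median 1123) in the low set. This sum does not speak for each of its 6 genes. Of these, Kit averaged 718 ± 455 in N-IKKα and 492 ± 286 in WT, while the other 5 had negative log2 fold changes in that comparison. Neutrophil markers summed to at most 234 outside WT 1, and Ly6g was at 0 in all C-IKKα and N-IKKα libraries. The B cell marker Ms4a1 was listed at 0 in every library, but the 6 B cell markers summed to 21.2 to 129 in the high set and 75.6 to 1117 in the low set. By group the B cell sum was 81.6 to 1117 in C-IKKα, 23.7 to 330 in N-IKKα and 21.2 to 180 in WT. Only 2 of the 6 passed the filter, and they differed. Jchain averaged 380 ± 379 in C-IKKα and 82.9 ± 58.0 in WT, while Cd79a averaged 14.7 ± 6.69 and 14.7 ± 4.81. Whether the hair set and the receptors are linked through the make-up of the samples was not tested.

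**Figure D4:**
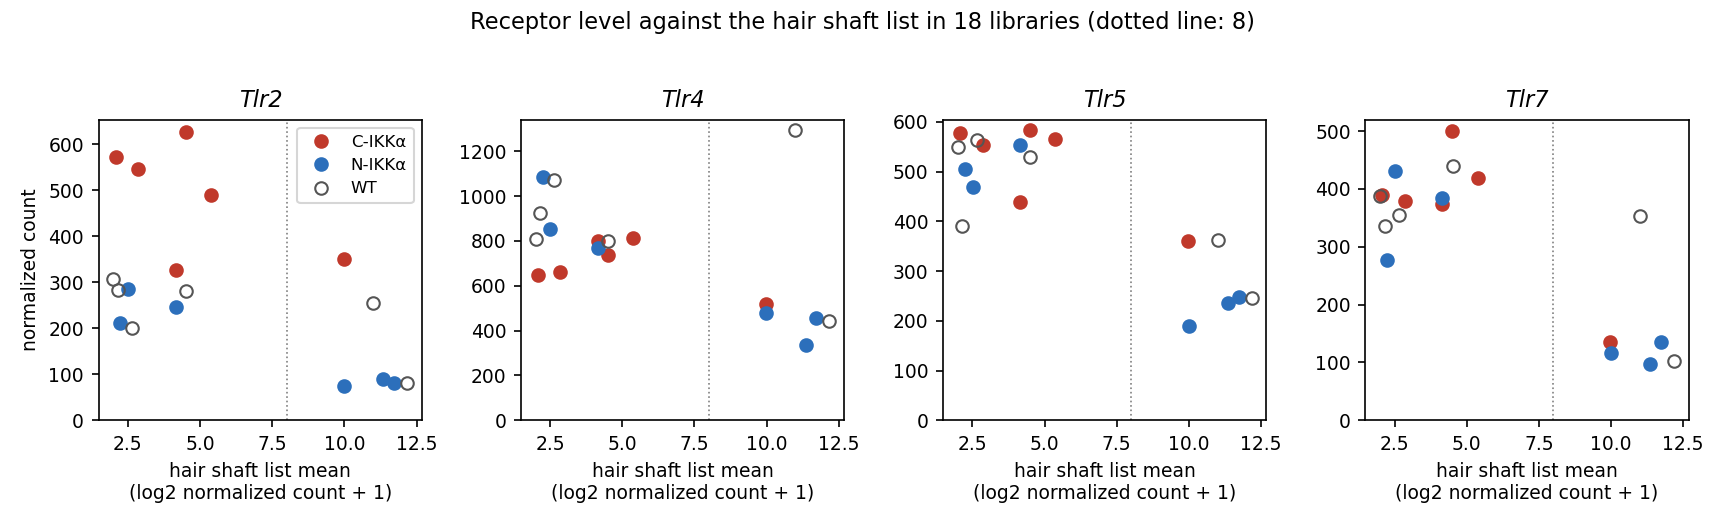
Normalized counts of Tlr2, Tlr4, Tlr5 and Tlr7 (vertical axes) against the mean log2 level of the hair shaft list (horizontal axis) in 18 libraries. C-IKKα and N-IKKα are filled and WT is open; to the right of the dotted line at 8, Tlr7 is between 97.0 and 136 in all libraries but WT 1.

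Per kb of exon, which allows genes to be compared, the order of the levels differed between the groups. In C-IKKα Tlr2 came first with 161 ± 40.4 normalized counts per kb, before Tlr4 (125 ± 19.8), Tlr5 (107 ± 19.3), Tlr7 (89.7 ± 29.8) and Tlr3 (86.2 ± 17.2). In N-IKKα Tlr4 came first with 119 ± 51.4 per kb and Tlr2 stood at rank 5 of 8 with 54.8 ± 30.9. In WT Tlr4 came first with 160.1 ± 51.7 per kb and Tlr2 stood at rank 4 with 77.8 ± 27.5, between Tlr7 (80.7 ± 28.6) and Tlr3 (74.7 ± 15.2). Tlr6, Tlr9 and Tlr1 were the lowest in each group, in that order, with means of 30.7 per kb or less. The ranges of mean ± SD of neighbours in these orders overlapped, with the exception of the step between ranks 5 and 6 in C-IKKα and in WT, from Tlr3 to Tlr6. Lengths are those of GENCODE M21.

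The genes most like each member over the 18 libraries were read as a description, by Pearson r of log2 levels. For Tlr2 they were Tbkbp1, which binds the kinase Tbk1 (0.97), Slc6a4, the serotonin transporter (0.97), and Slc25a48 (0.96). For Tlr1 they included Cyth4 (0.92) and Hk3 (0.89), and for Tlr6 they were Ets1 (0.95), Samsn1 (0.94) and Cybb, a subunit of the phagocyte oxidase (0.93). Tlr4 was closest to Ifi207, Gda and Nav1 (0.96, 0.96 and 0.96) and Tlr5 to Fam3c, Lifr and Calcrl (0.97, 0.96 and 0.95). Tlr3 was closest to Trim12c, Herc6 and Trim34b (0.97, 0.95 and 0.94), and Herc6 is known as an interferon-induced gene. Tlr7 was closest to Tlr8 (0.96), Iqgap2 and Scara5, and Tlr9 to Prex1, Ptprj and Il2rb (0.93, 0.93 and 0.92). Over the 12 low libraries alone the r of Tlr7 with Tlr8 was 0.44, and that of Tlr2 with Slc6a4 was 0.94.

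The remaining receptors and partners showed no called change. Of 4 other Toll-like receptors 3 passed the filter, while Tlr12 stayed at 21.5 normalized counts or less. In each comparison limma, edgeR and DESeq2 called 0 of the 3. An unadjusted limma p below 0.05 was found for 1 in C-IKKα against WT (5.73% of all genes). In N-IKKα it was found for 0 against WT (4.14%) and 1 against C-IKKα (11.7%). Tlr11 averaged 86.8 ± 29.3 in C-IKKα, 48.5 ± 33.3 in N-IKKα and 43.9 ± 21.9 in WT (log2 fold change 1.09 for C-IKKα against WT, limma adjusted p = 0.803). Of 10 co-receptor and trafficking genes limma called 0 in each comparison, also by edgeR and DESeq2 and with 0 at an unadjusted p below 0.05. The 2 with the smallest p in C-IKKα against WT were Lbp, which carries lipopolysaccharide (0.39, limma adjusted p = 0.985), and Ly86 (0.34, limma adjusted p = 0.985).

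Adaptors and kinases likewise gave no limma call. Of 5 adaptors other than Myd88, limma, edgeR and DESeq2 called 0. At an unadjusted limma p below 0.05 there were 0 in N-IKKα against WT and 0 against C-IKKα. In C-IKKα against WT there was 1, beside 5.73% of all genes. This was Tirap, which bridges Tlr2 and Tlr4 to Myd88, with 503 ± 80.1 in C-IKKα and 641 ± 116 in WT (-0.35, limma adjusted p = 0.541); Sarm1 was at 0.33 (limma adjusted p = 0.985). Of 16 kinases and ligases tested, limma, edgeR and DESeq2 called 0. An unadjusted limma p below 0.05 was found for 3 in C-IKKα against WT (5.73% of all genes). In N-IKKα it was found for 1 against WT (4.14%) and 3 against C-IKKα (11.7%). With the hair covariate limma called 1 of the 16 higher in C-IKKα than in WT and 1 lower in N-IKKα than in C-IKKα, beside 0.86% of all genes in each. Without the libraries with high hair keratins it called 1 higher in C-IKKα than in WT, beside 0.895%. Traf3, a ligase of the interferon branch, averaged 1308 ± 158 in C-IKKα and 976 ± 130 in WT (0.42, limma adjusted p = 0.347), and Ikbkg, the regulatory subunit of the IKK complex, 1041 ± 80.3 in C-IKKα and 1164 ± 68.6 in WT (-0.16, limma adjusted p = 0.808). Of 8 transcription factors limma, edgeR and DESeq2 called 0. An unadjusted limma p below 0.05 was found for 1 in C-IKKα against WT (5.73% of all genes). In N-IKKα it was found for 0 against WT (4.14%) and 1 against C-IKKα (11.7%). In C-IKKα against WT Rela was at 0.26 (limma adjusted p = 0.766) and Nfkb1 at 0.22 (limma adjusted p = 0.960).

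Of 11 genes that restrain receptor signalling, limma called 3 higher in C-IKKα than in WT, beside 0.345% of all genes, and 4 lower in N-IKKα than in C-IKKα, beside 0.425%. The other 8 and 7 did not pass the test. In C-IKKα against WT edgeR called 3 and DESeq2 4 of the 11, beside 0.311% and 0.77% of all genes called higher. In N-IKKα against C-IKKα each called 4, beside 0.334% and 0.968% called lower. In N-IKKα against WT limma, edgeR and DESeq2 called 0. An unadjusted limma p below 0.05 was found for 5 of 11 in C-IKKα against WT (5.73% of all genes). In N-IKKα it was found for 0 of 11 against WT (4.14%) and 6 of 11 against C-IKKα (11.7%). The list's median log2 fold change was 0.18 in C-IKKα against WT, -0.18 in N-IKKα against WT and -0.52 in N-IKKα against C-IKKα. Without the 6 libraries with high hair keratins the counts were 3 and 1 of 11, beside 0.895% and 0.236% of all genes. Together with the target genes below, limma called 4 genes against WT, but 2 without C-IKKα 13, 16 or 17, and 5 in N-IKKα against C-IKKα, but 3 without any of the same mice. With 1 library left out, calls over all genes were 24 to 68 and 36 to 103 in these comparisons.

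Tnfaip3, a deubiquitinase that takes ubiquitin chains off Traf6 and other mediators, had 666 to 1736 normalized counts (median 1351) in C-IKKα, 308 to 538 (median 393) in N-IKKα and 410.2 to 609.9 (median 471) in WT. All C-IKKα libraries were above all others. Its log2 fold change in N-IKKα against C-IKKα was -1.58 (limma adjusted p = 0.00103). Nfkbia, the inhibitor that keeps NF-kB in the cytoplasm, had 1411 to 2682 (median 1975) in C-IKKα, 617 to 1198 (median 832) in N-IKKα and 548 to 1340 (median 992) in WT, again without overlap of C-IKKα with the others. It had -1.26 in N-IKKα against C-IKKα (limma adjusted p = 0.0112). Within the low hair set Tnfaip3 was 666 to 1736 in C-IKKα, 454 to 538 in N-IKKα and 410.2 to 609.9 in WT. Nfkbia was 1411 to 2682 in C-IKKα, 963 to 1198 in N-IKKα and 661 to 1340 in WT in that set, again without overlap of C-IKKα with the others.

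Tnip1, a ubiquitin-binding partner of Tnfaip3, had 623 to 999 normalized counts (median 835) in C-IKKα, 359.6 to 613 (median 474) in N-IKKα and 425 to 546 (median 474) in WT. Its log2 fold change was 0.75 in C-IKKα against WT (limma adjusted p = 0.0137) and -0.74 in N-IKKα against C-IKKα (limma adjusted p = 0.0140). Tnip3, a relative of Tnip1, had 30.3 to 147 (median 74.0) in C-IKKα, 8.39 to 28.2 (median 15.1) in N-IKKα and 19.3 to 37.4 (median 27.1) in WT. It fell in N-IKKα relative to C-IKKα (-2.12, limma adjusted p = 0.0158) and was not called in C-IKKα against WT (1.30, limma adjusted p = 0.346), where C-IKKα 15, the lowest of its group, overlapped with WT.

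Of 16 target genes of the receptors, 8 passed the filter, and limma called 1, Icam1, a leukocyte adhesion molecule. It was called higher in C-IKKα than in WT, beside 0.345% of all genes, and lower in N-IKKα than in C-IKKα, beside 0.425%. Without the libraries with high hair keratins the counts for the list were 1 and 0, beside 0.895% and 0.236%. An unadjusted limma p below 0.05 was found for 2 of the 8 in C-IKKα against WT (5.73% of all genes). In N-IKKα it was found for 1 against WT (4.14%) and 5 against C-IKKα (11.7%). Icam1 had 636 to 1362 normalized counts (median 1109) in C-IKKα, 280 to 583 (median 441) in N-IKKα and 268 to 469.7 (median 444) in WT, so that C-IKKα lay above both other groups. Within the low hair set it was 636 to 1362 in C-IKKα, 549 to 583 in N-IKKα and 425 to 452 in WT. Its log2 fold change was -1.31 in N-IKKα against C-IKKα (limma adjusted p = 0.00835). Tnf, an inflammatory cytokine, averaged 92.0 ± 41.1 in C-IKKα, 44.2 ± 13.3 in N-IKKα and 46.2 ± 19.4 in WT and was not called (named after its values were seen; 0.996 in C-IKKα against WT, limma adjusted p = 0.519). Il6, Il12b, Cxcl2, Cxcl10, Ccl5, Ifnb1, Saa3 and Il1a did not pass the filter.

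**Figure D5:**
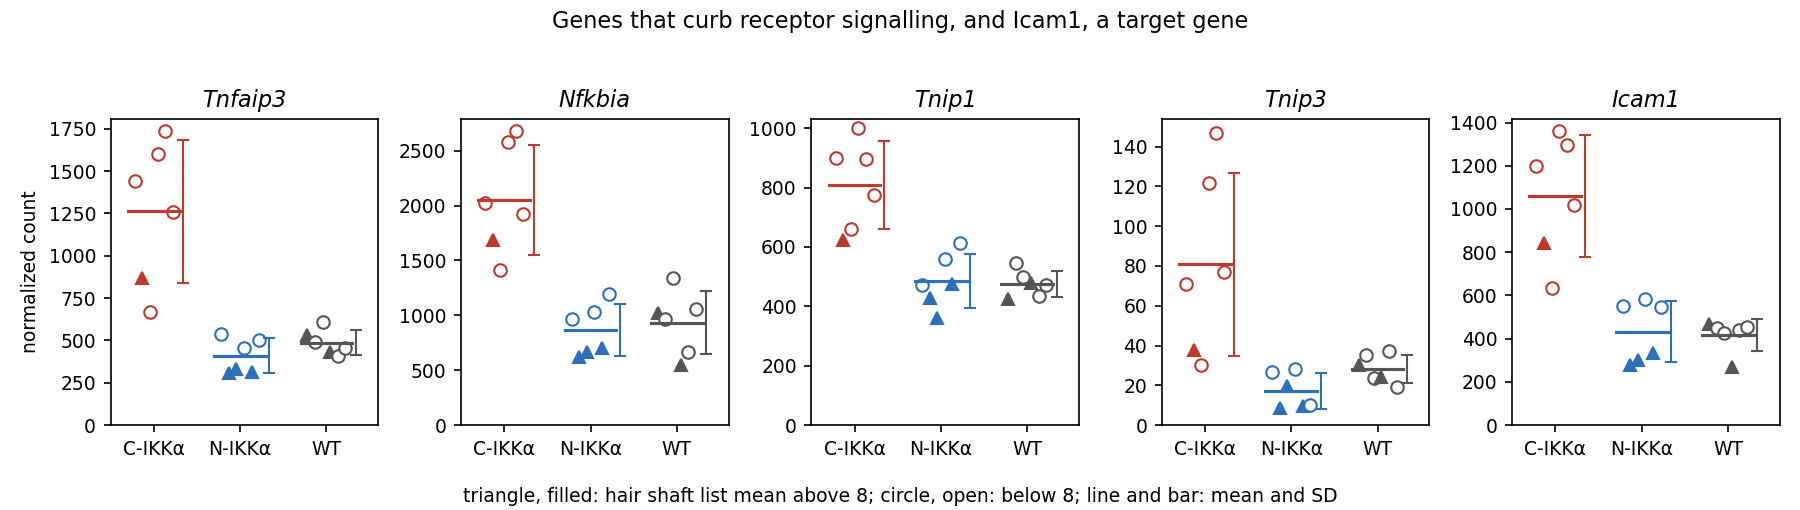
Normalized counts (vertical axes) of Tnfaip3, Nfkbia, Tnip1, Tnip3 and Icam1 in C-IKKα, N-IKKα and WT skin, drawn as for the receptors (n = 6 each, mean and SD). In Tnfaip3, Nfkbia, Tnip1 and Icam1 the C-IKKα values lie above all WT values, and in Tnfaip3 the lowest C-IKKα value, 666, is above the highest WT value, 609.9.

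Endogenous ligands and the related interleukin receptors gave no limma call in the 3 comparisons. Of 8 ligands of the body's own that were tested, limma, edgeR and DESeq2 called 0, and 0 had an unadjusted p below 0.05. Without the libraries with high hair keratins limma called 1 higher in C-IKKα than in WT, beside 0.895% of all genes. S100a9 averaged 25.7 ± 16.7 in C-IKKα, 19.6 ± 8.98 in N-IKKα and 199 ± 428 in WT, the last through WT 1, and Vcan, a matrix proteoglycan, had -0.41 in C-IKKα against WT (limma adjusted p = 0.985). Of 6 receptors of the Il1 family, which also signal through Myd88, limma and edgeR called 0. DESeq2 called 1 in N-IKKα against C-IKKα, where it called 0.968% of all genes lower. With the hair covariate limma called 1 higher in C-IKKα than in WT and 1 lower in N-IKKα than in C-IKKα, beside 0.86% of all genes in each. Without the libraries with high hair keratins it called 1 higher in C-IKKα than in WT, beside 0.895%. Il18r1 averaged 858 ± 359 in C-IKKα, 274 ± 167 in N-IKKα and 344 ± 175 in WT (1.41 in C-IKKα against WT, limma adjusted p = 0.470; -1.79 in N-IKKα against C-IKKα, limma adjusted p = 0.136). Il1rap, the co-receptor of the Il1 receptor, was at 0.23 (limma adjusted p = 0.985).

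Markers of cells known to carry these receptors were counted in the same fit. Of 10 macrophage, 9 dendritic and Langerhans, 6 T cell, 6 mast cell, 5 endothelial and 5 fibroblast markers, limma, edgeR and DESeq2 called 0 in each comparison. Of 6 plasmacytoid dendritic cell markers limma called 1, Spib. It was higher in C-IKKα than in WT (4.67, limma adjusted p = 7.66e-05), where 0.345% of all genes were called higher. In N-IKKα it was lower than in C-IKKα (-4.22, limma adjusted p = 0.00024), where 0.425% were called lower. Siglech, another marker of those cells named after its values were seen, was at 0.05 in C-IKKα against WT (limma adjusted p = 0.997). Bst2 of the same list was at 0.78 (limma adjusted p = 0.761). Of the 6 markers 5 were positive there, and 2 had an unadjusted limma p below 0.05 (5.73% of all genes). In N-IKKα against C-IKKα 5 of 6 were negative, and 3 had an unadjusted limma p below 0.05 (11.7%). The T cell marker Cd8a was at 2.37 in C-IKKα against WT (limma adjusted p = 0.443).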

How the data were processed

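Poly(A) RNA of 18 back skin samples was sequenced on a stranded protocol, per the labels' protocols, and counted with featureCounts on GRCm39, per the submitters' processing notes. The deposited values form a signal, gene counts that the authors divided by 1 size factor per library. Whole reads were recovered for 100% of values within 0.001 of a whole number. Libraries held 11.1 to 15.7 M reads, which limits the precision of low genes. Tests used limma 3.58.1 in R 4.3.3 with a trended variance on log2(normalized count + 1) over all 18 libraries, so fold changes of low genes are understated. Genes with at least 10 in at least 6 libraries were kept, and Benjamini-Hochberg adjusted p below 0.05 was called. edgeR 4.0.16 and DESeq2 1.42.0 ran on the recovered reads. Scripts were tested on simulated data. Alternatives were other pseudocounts, filters, scalings, covariates and left-out libraries. Named genes were all members, up to 4 called genes of each list or else the 2 with the smallest p in C-IKKα against WT, and the 3 genes most like each member, of which 1 is not reported here. Members and lists were chosen with earlier results of these data known. No pair of libraries within a group agreed within sampling noise.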

Additional observations from a re-analysis of the deposited data

Results flagged for a closer look

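In 3 of 24 groups of 6 libraries, 1 library lay far from the others, and chance flags about 1 in 20 groups. For Tlr2 in WT this was WT 4, with 82.2 normalized counts, where on the log2 scale, log2(normalized count + 1), the gap to the nearest library was 0.677 of the range of the group. For Tlr7 in WT it was also WT 4, with 103 normalized counts and a gap of 0.815 of the log2 range. For Tlr7 in C-IKKα it was C-IKKα 14, with 136 normalized counts and a gap of 0.776 of the log2 range. Both libraries belong to the 6 with high hair keratins.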

How the results depend on the processing

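Tlr2 kept its sign in all 3 comparisons under every alternative run. In N-IKKα against C-IKKα its call was lost, so that 0 members were called in place of 1, with a filter of 50 (-1.72), with edgeR (-1.56), with robust moderation (-1.72), with the 2 groups alone (-1.72), with sex (-1.47) and with the dendritic cell covariate (-0.99), and it was kept in 14 of 20 alternatives. Leaving out 1 library gave -1.92 to -1.54, 0 to 1 members called and 3 to 5 pathway genes, beside 36 to 103 calls over all genes. In C-IKKα against WT Tlr2 was called, 1 member in place of 0, without the high hair libraries (0.92), with the hair covariate (0.998) and with hair and macrophage covariates (1.04). Leaving out 1 library gave 0.84 to 1.23 there, and 2 to 4 pathway genes, beside 24 to 68 calls over all genes.

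Pathway genes called in C-IKKα against WT were 4, beside 0.345% of all genes called higher, and 7 without the high hair libraries, beside 0.895%. In N-IKKα against C-IKKα they were 5, beside 0.425% of all genes called lower, but 1 without the high hair libraries, beside 0.236%. There they were 3 with the 2 groups alone, 3 with the dendritic and 8 with the hair and macrophage covariates. The calls over all genes moved too, so these counts alone do not set the pathway apart. Over all genes, 61 calls in C-IKKα against WT became 38 (filter of 50), 151 (DESeq2), 176 (array weights), 164 (without high hair), 163 (hair), 151 (sex and hair) and 197 (hair and macrophage), with 24 to 68 when 1 library was left out. In N-IKKα against WT 1 call became 0 to 2. In N-IKKα against C-IKKα 76 became 47 (filter of 50), 188 (DESeq2), 163 (array weights), 44 (without high hair), 161 (hair), 179 (sex and hair), 44 (dendritic) and 176 (hair and macrophage), with 36 to 103 when 1 library was left out.

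Signs of uncalled members turned as follows, and the cause was not tested. In C-IKKα against WT Tlr7 was -0.15 with sex and -0.073 with sex and hair. With the dendritic covariate Tlr1 was -0.16, Tlr3 -0.077, Tlr5 -0.17, Tlr6 -0.20, Tlr7 -0.42 and Tlr9 -0.22, and with hair added Tlr1 was -0.13, Tlr5 -0.043, Tlr6 -0.044, Tlr7 -0.18 and Tlr9 -0.011. Leaving out 1 library gave -0.047 to 0.37 for Tlr6 and -0.13 to 0.44 for Tlr7, the lowest without WT 4. In N-IKKα against WT, without the high hair libraries, Tlr3 was 0.045, Tlr5 0.012 and Tlr9 0.056. There Tlr9 was 0.032 with hair, 0.029 with sex and hair, 0.22 with macrophage, 0.22 with hair and macrophage and 0.033 with hair and dendritic covariates, and -0.60 to 0.070 when 1 library was left out. In N-IKKα against C-IKKα Tlr4 was 0.29 without the high hair libraries, 0.0028 with hair, 0.10 with macrophage, 0.22 with dendritic, 0.12 with hair and macrophage and 0.15 with hair and dendritic covariates, and -0.33 to 0.0044 when 1 library was left out. Tlr9 was 0.20 with the dendritic and 0.044 with the hair and dendritic covariates. No paired analysis was possible because the groups share no replicate numbers. The macrophage and dendritic covariates were chosen after seeing the data.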
